A study of Homo sapiens with 9 samples.

Results

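Expression of the genes of autophagy and of the lysosome was followed in HT29, by its label a colorectal adenocarcinoma cell line of human origin, after knockdown of either of a pair of DNA methyltransferases. The genes were chosen by symbol from the raw count table: the numbered ATG genes, the cathepsins (CTSA to CTSZ), the LAMP genes, the V0 and V1 subunits of the vacuolar proton pump (ATP6V), and SQSTM1, NBR1, TFEB, TFE3, CD68, MAP1LC3B, GABARAP, GABARAPL1 and GABARAPL2. Antisense transcripts and pseudogenes, 3 in all, were dropped, which left 70 of the 25886 symbols in the table. Of these 70 genes, 68 had a count in at least 1 library and 62 passed the filter on low counts and were tested, among 16660 tested genes in all. The 8 that were not tested were CTSE, CTSF, CTSG, CTSS, LAMP5, ATP6V0A4, ATP6V0D2 and ATP6V1G3, the last pair with 0 counts in all 9 libraries.

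There were 3 libraries of DNMT1 knockdown cells, 3 of DNMT3B knockdown cells and 3 of Control cells, all of rRNA-depleted total RNA. Stable knockdown was obtained with lentiviruses, and the labels give puromycin selection for every group, Control included. The series was designed around the lowering of both enzymes by proteasome inhibitors, and its libraries compare transcriptomes after depletion of DNMT1 or of DNMT3B. The labels give neither the hairpin sequences nor the number of hairpins or clones, nor do they state if the replicate libraries stand for different cultures. The p-values are therefore relative to a spread that may be technical.

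Libraries held 18772187 to 33666224 counts, and the 70 genes together took 0.361 to 0.371% of them in every library. DNMT1 mRNA averaged 252 CPM (counts scaled to a common library size) in DNMT1 knockdown and 458 CPM in Control, and DNMT3B mRNA 30.5 CPM in DNMT3B knockdown and 61.3 CPM in Control. Neither knockdown overlapped Control for its target (exact two-sided permutation p = 0.1 each, the smallest that 3 against 3 libraries allow). Markers of the labelled cell type were mixed. EPCAM, KRT8, KRT18, KRT19, CDH1 and CDX2 were expressed in every group (38.2 to 1168 CPM), whereas group means of CEACAM5, CDX1, LGALS4, CDH17, VIL1 and KRT20 lay between 0 and 2.02 CPM, and the cells are therefore called by their label only.

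Autophagy encloses cytoplasm in a double membrane that then fuses with the lysosome. ATG8-like proteins (the LC3 and GABARAP families) are coupled to that growing membrane by a ubiquitin-like conjugation system, and receptors such as p62, the product of SQSTM1, bind both the cargo and the ATG8 proteins. In the lysosome the V-ATPase pumps protons across the membrane, the acid activates cathepsins and other hydrolases, and heavily glycosylated LAMP proteins line the inner face. TFEB and TFE3 are transcription factors of the MiT/TFE family that, when they enter the nucleus, bind E-box motifs in the promoters of many of these genes.

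Because these factors read E-boxes and because DNMT1 and DNMT3B methylate cytosines at CpG dinucleotides, both features were counted in the 250 bases upstream of each gene start in a RefSeq promoter table of build GRCh38.p14, which held 54 of the 70 genes. The E-box CACGTG, a palindrome that reads the same on both strands, occurred in 10 of the 54 (18.5%), against 8.3% of the 12705 tested genes with a promoter and 6.49% of all 27305 promoters of the table. The longer palindrome TCACGTGA, which contains that E-box, occurred in 4 (7.41%), in CTSA, LAMP1, ATP6V0D1 and ATP6V1G1, against 1.42% of tested genes and 0.89% of all promoters. A match describes letters in a window and is not evidence of binding. The windows of LAMP1, whose upstream sequence held 5 E-boxes, and of ATP6V1G1 are shown because they carry the longer motif, in capitals, at chr13:113297190-113297237 (+) and chr9:114587690-114587737 (+).
LAMP1: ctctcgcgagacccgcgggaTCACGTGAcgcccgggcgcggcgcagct
ATP6V1G1: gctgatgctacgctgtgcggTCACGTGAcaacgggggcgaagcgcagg
LAMP1 and ATP6V1G1 stood at 37.3 and 59.1 CPM per kilobase of exon in Control, and their changes are given with the membrane proteins and the pump subunits.

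CpG dinucleotides numbered 1 to 45 in the 54 upstream sequences, with a median of 21, against a median of 20 over tested genes. Among the members with a promoter in the table, the median was 24 CpG for those higher in DNMT1 knockdown than in Control, 23 for those lower and 22 for those not called. The same medians were 22.5, 23 and 20.5 CpG in DNMT3B knockdown in the same order, and the ranges of all these sets overlapped. DNA methylation itself was not analysed here. A pair of members that changed in both knockdowns, chosen after their values were seen, is shown as an example of few and of many CpG: ATG9B, which was higher in both knockdowns than in Control, has 1 CpG, and CTSZ, which was lower in both, has 30 CpG. The medians over the members do not show that contrast between higher and lower genes. Their upstream sequences, at chr7:151024500-151024749 (−) and chr20:59007255-59007504 (−), are printed on the strand of the gene with each CpG in capitals.
ATG9B: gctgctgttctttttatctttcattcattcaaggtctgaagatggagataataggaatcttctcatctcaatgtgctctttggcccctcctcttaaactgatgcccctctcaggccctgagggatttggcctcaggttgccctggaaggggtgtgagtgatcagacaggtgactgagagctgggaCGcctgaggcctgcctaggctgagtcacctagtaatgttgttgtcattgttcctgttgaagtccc
CTSZ: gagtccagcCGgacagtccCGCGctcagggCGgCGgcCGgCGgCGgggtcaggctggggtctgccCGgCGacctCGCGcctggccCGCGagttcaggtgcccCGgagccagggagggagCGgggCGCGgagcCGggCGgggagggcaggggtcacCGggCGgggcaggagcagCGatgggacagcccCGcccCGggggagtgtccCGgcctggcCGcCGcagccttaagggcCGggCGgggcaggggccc

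Many members changed in both knockdowns, by small amounts and in both directions. With a call at a Benjamini-Hochberg adjusted p below 0.05 in edgeR's quasi-likelihood test over all tested genes, 14 members were higher and 18 lower in DNMT1 knockdown than in Control, 51.6% of the 62 tested. Over all tested genes, 41.8% were called in that comparison, 21% higher and 20.8% lower. In DNMT3B knockdown, 22 members were higher and 19 lower than in Control, 66.1% of 62, beside 47.7% of all tested genes (23.1% higher and 24.6% lower). The median log2 fold change of the tested members was −0.02 in DNMT1 knockdown and 0.03 in DNMT3B knockdown, and over all tested genes it was 0.00 in both. Both comparisons use the same Control libraries, so that their values are given side by side and not as independent results. In bulk RNA, fewer cells that express a gene and less of its RNA per cell cannot be told apart.

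A change of at least 1.5-fold was reached by 2 members in DNMT1 knockdown, CTSL and ATG9B, and by 3 in DNMT3B knockdown, CD68, ATG9B and ATP6V1G2. Over the 16660 tested genes, 1123 reached that size in DNMT1 knockdown and 1437 in DNMT3B knockdown. None of the 62 members reached 2-fold, which 334 and 427 of all tested genes did in these comparisons. The summed level of the 70 genes was 3608 to 3634 CPM in DNMT1 knockdown, 3664 to 3708 CPM in DNMT3B knockdown and 3632 to 3718 CPM in Control, and both knockdowns overlapped Control.

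Some calls depended on which libraries were in the fit. In DNMT1 knockdown, 8 members were called higher without Control replicate 2 and 9 without DNMT1 knockdown replicate 3, in place of 14. The calls of ATG16L1, ATG2A, ATG4C, ATG7, ATP6V0A2, ATP6V0E1, ATP6V0E2, ATP6V1D, ATP6V1F, ATP6V1FNB, CTSA and LAMP3 in DNMT1 knockdown each ended when 1 of the 9 libraries was left out (highest adjusted p per gene 0.0775 to 0.269), and the other 20 calls held in every such fit. In DNMT3B knockdown the same was true of ATG10, ATG14, ATG16L1, ATG3, ATG4C, ATP6V0B, ATP6V0E1, ATP6V1E2, CTSC and CTSW (0.0613 to 0.45), and 31 calls held. DESeq2 ended 8 of the DNMT1 knockdown calls and 6 of the DNMT3B knockdown calls, all of them calls of genes named in this paragraph.

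Counting on strand is not stated for these data, and 24 members share exon bases with another gene of the table, mostly on the opposite strand. Within the shared bases, reads of a pair cannot be told apart if both genes lie on the same strand or if strand was ignored. The values of ATG12, ATG9B, ATG4D, ATG7, SQSTM1, MAP1LC3B, CTSA, ATP6V1G2, ATP6V1B1 and others are uncertain to that extent. The other 40 tested members share no exon base with a gene of the table. Of these, CTSL, CTSB, CTSZ and ATG5 share none with any other gene of the GENCODE annotation either, whereas CD68, GABARAP, GABARAPL1 and ATP6V0A2 share some with annotated transcripts that are not in the table. For some members a near-identical copy exists elsewhere in the genome, such as MAP1LC3B2 for MAP1LC3B, and reads that fit both may have been lost or split.

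**Figure D1:**
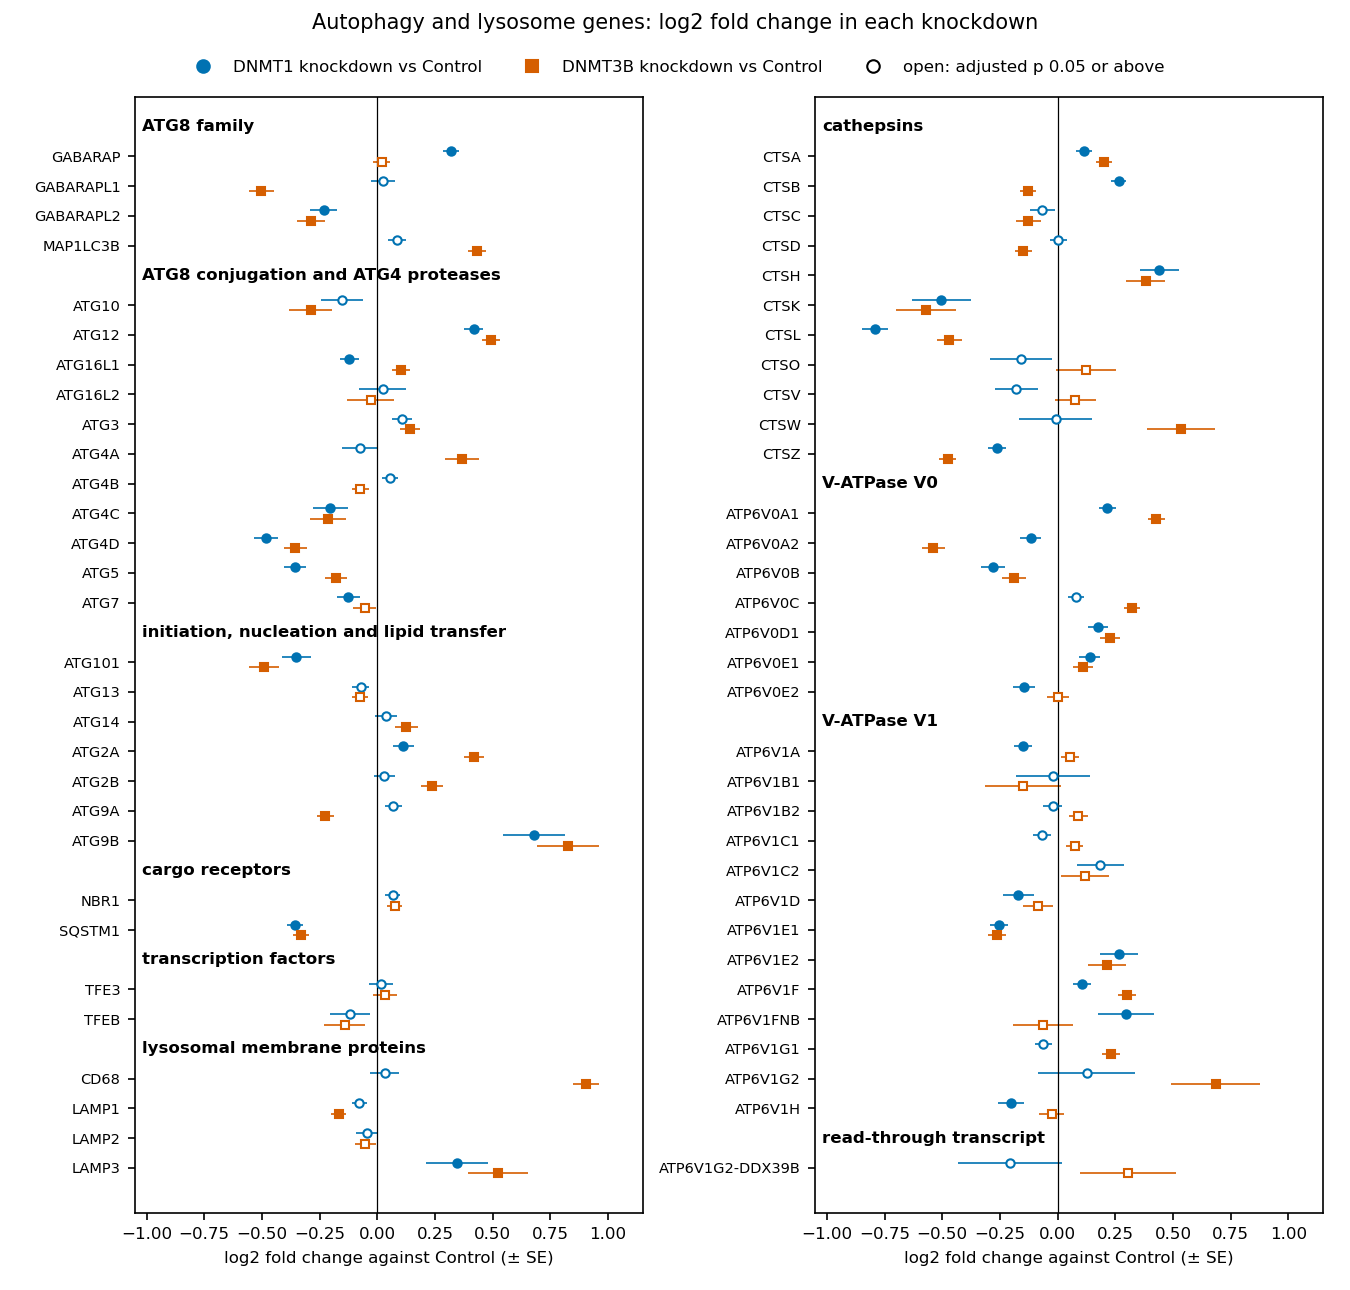
Log2 fold change (x axis, ± SE) of each of the 62 tested members, grouped by role, in DNMT1 knockdown (circles) and DNMT3B knockdown (squares) against Control. Filled symbols passed an adjusted p below 0.05, 32 circles and 41 squares. Within most roles symbols lie on both sides of 0, with CD68 (0.90) and ATG9B (0.83) farthest right in DNMT3B knockdown and CTSL (−0.79) farthest left in DNMT1 knockdown.

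Among the ATG8 genes, a different one was higher in each knockdown. GABARAP (chr17:7240014-7242770, − strand, GRCh38), of the subfamily that acts late in autophagosome maturation, was at 124, 120 and 130 CPM in DNMT1 knockdown libraries, 101, 103 and 100 CPM in DNMT3B knockdown libraries and 97.8, 101 and 101 CPM in Control libraries. All DNMT1 knockdown libraries lay above every other library, whereas DNMT3B knockdown and Control overlapped. The log2 fold change was 0.32 ± 0.04 in DNMT1 knockdown (adjusted p = 1.29e-08) and 0.02 ± 0.04 in DNMT3B knockdown (adjusted p = 0.695).

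MAP1LC3B (chr16:87383995-87404779, +), which encodes the LC3 protein most used as an autophagosome marker, had 91, 90.2 and 87.1 CPM in DNMT1 knockdown, 111, 110 and 119 CPM in DNMT3B knockdown and 88.1, 82.4 and 82.1 CPM in Control. Here the DNMT3B knockdown libraries stood apart, at 1.35-fold the Control level (log2 fold change 0.43 ± 0.04, adjusted p = 1.04e-10), and DNMT1 knockdown overlapped Control (0.09 ± 0.04, adjusted p = 0.0806). Without Control replicate 1 the DNMT1 knockdown difference passed the threshold (log2 fold change 0.12, adjusted p = 0.0256). MAP1LC3B shares exon bases with FBXO31 on the other strand, which rose by 0.10 ± 0.04 on the log2 scale in DNMT3B knockdown (adjusted p = 0.0257).

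GABARAPL1 (chr12:10212458-10223130, +) moved the other way in DNMT3B knockdown. Its levels were 30.2, 30.1 and 29.8 CPM in DNMT1 knockdown, 19.5, 22 and 21.3 CPM in DNMT3B knockdown and 30.2, 28.4 and 30 CPM in Control. Every DNMT3B knockdown library was below every other library, a 1.42-fold lower mean (log2 fold change −0.50 ± 0.05, adjusted p = 4.53e-09), and DNMT1 knockdown overlapped Control (0.02 ± 0.05, adjusted p = 0.733). GABARAPL2, the remaining member, was lower in both, at 24 ± 1.53 CPM in DNMT1 knockdown, 23.1 ± 1.25 CPM in DNMT3B knockdown and 28.2 ± 1.96 CPM in Control (SD, n = 3 each; log2 fold changes −0.23 ± 0.06 and −0.29 ± 0.06, adjusted p = 0.00185 and 0.000183 in edgeR). Summed over the 4 genes, ATG8 transcripts came to 263 to 271 CPM in DNMT1 knockdown, 254 to 265 CPM in DNMT3B knockdown and 237 to 245 CPM in Control, with no Control library as high as any knockdown library.

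SQSTM1 (chr5:179806398-179838078, +) took the most counts of all members in Control and fell in both knockdowns. It had 319, 322 and 308 CPM in DNMT1 knockdown, 314, 334 and 319 CPM in DNMT3B knockdown and 407, 396 and 412 CPM in Control. No knockdown library reached the lowest Control library, and the 2 knockdowns overlapped each other. The fall was 1.28-fold in DNMT1 knockdown (log2 fold change −0.36 ± 0.03, adjusted p = 2.92e-10) and 1.26-fold in DNMT3B knockdown (−0.33 ± 0.03, adjusted p = 1.03e-09).

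Of the genes that share exon bases with SQSTM1 on the other strand, MGAT4B, a glycosyltransferase gene, averaged 135 CPM in DNMT1 knockdown, 105 CPM in DNMT3B knockdown and 136 CPM in Control, and MRNIP averaged 8.38 CPM in DNMT1 knockdown, 7.9 CPM in DNMT3B knockdown and 8.52 CPM in Control. MGAT4B thus fell in DNMT3B knockdown (−0.37 ± 0.04, adjusted p = 6.32e-10) but not detectably in DNMT1 knockdown (adjusted p = 0.938), and its part in the SQSTM1 counts was not tested. NBR1, the other receptor among the members, did not pass the test in either knockdown, although no knockdown library was as low as any Control library. It averaged 139 ± 1.73 CPM in DNMT1 knockdown, 140 ± 0.587 CPM in DNMT3B knockdown and 133 ± 0.498 CPM in Control (SD, n = 3 each; adjusted p = 0.0981 and 0.059 in edgeR).

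Receptors and ATG8 genes outside the member list moved in both directions. Of 15 tested, 3 were higher and 1 lower in DNMT1 knockdown than in Control, with the mitophagy receptor BNIP3L (log2 fold change 0.21 ± 0.04, adjusted p = 3.35e-05) and the ferritin receptor NCOA4 (0.14 ± 0.03, adjusted p = 0.00168) among those higher and the mitophagy receptor FUNDC1 (−0.35 ± 0.08, adjusted p = 0.00089) the one lower. The DNMT1 knockdown shares were 20% and 6.67%, beside 21% and 20.8% of all tested genes. In DNMT3B knockdown 3 were higher and 3 lower, 20% each, beside 23.1% and 24.6%. NCOA4 was called higher there too (0.17 ± 0.03, adjusted p = 0.000117). BNIP3, another mitophagy receptor, rose in both (0.13 ± 0.05 and 0.35 ± 0.04, adjusted p = 0.0166 and 8.54e-08). The ER-phagy receptor RETREG1 fell in DNMT3B knockdown by 0.63 ± 0.09 on the log2 scale (adjusted p = 5.19e-07), to 5.71 CPM, against 8.84 CPM in Control. CALCOCO2, the receptor NDP52, also fell in DNMT3B knockdown (−0.26 ± 0.04, adjusted p = 1.82e-06).

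**Figure D2:**
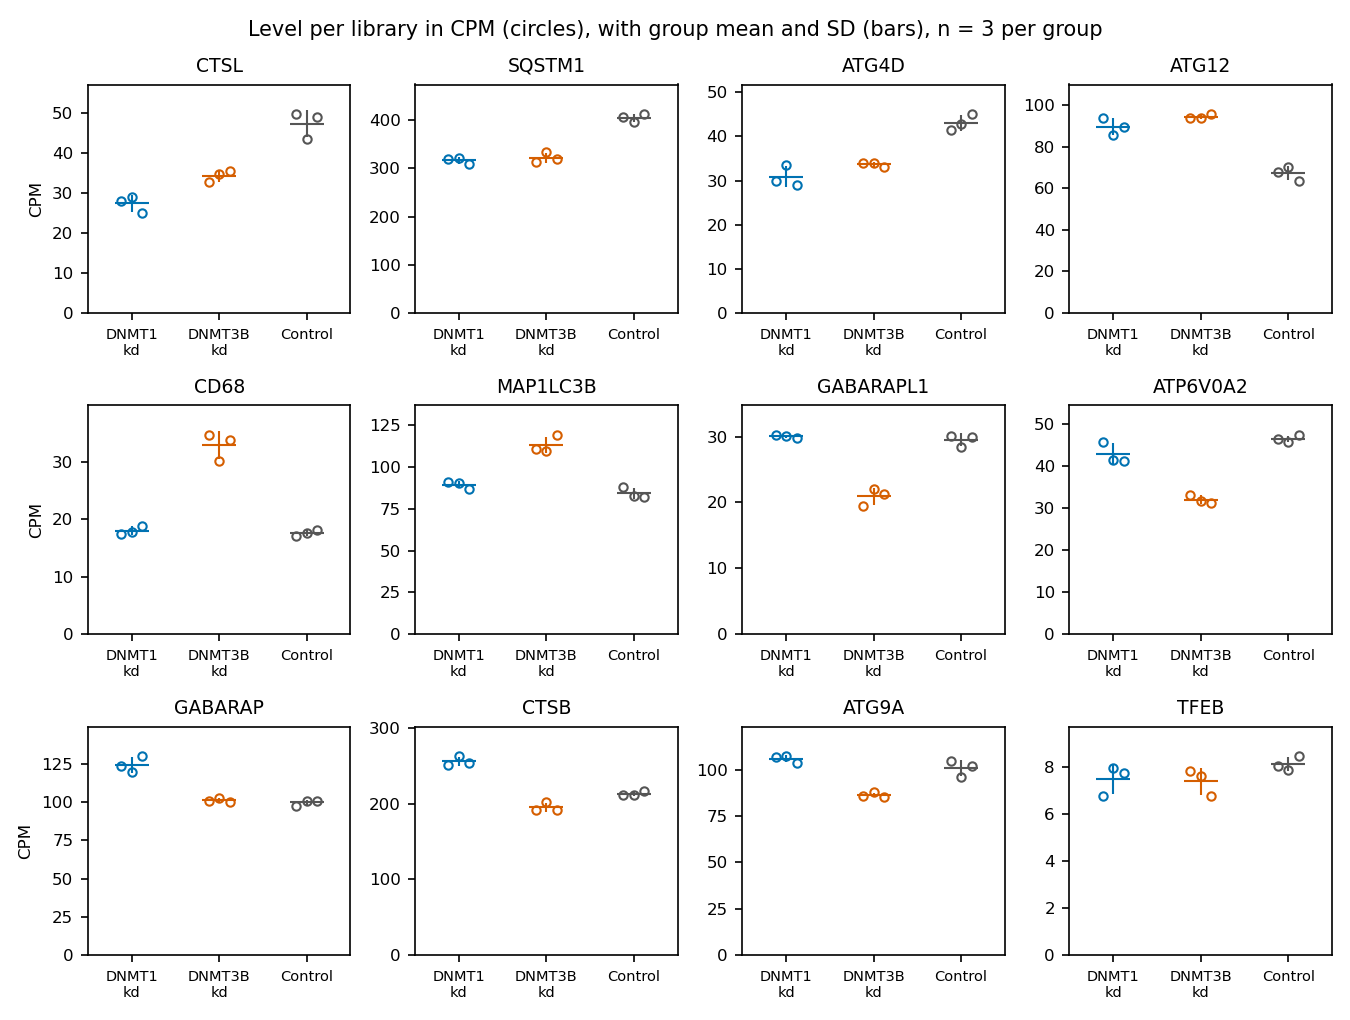
CPM (y axis, from 0) of 12 members in each library (circles), with the mean (horizontal mark) and SD (vertical bar) of the 3 libraries per group. CTSL, SQSTM1 and ATG4D lie lower and ATG12 higher in both knockdowns than in Control. CD68, MAP1LC3B, GABARAPL1, ATP6V0A2 and ATG9A stand apart in DNMT3B knockdown, GABARAP in DNMT1 knockdown, CTSB differs in opposite directions, and TFEB does not pass the test in either.

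The conjugation machinery, in which ATG7 activates and ATG3 and ATG10 transfer the ubiquitin-like proteins and the ATG12–ATG5–ATG16L1 complex directs LC3 to the membrane, had more falls than rises in DNMT1 knockdown. Of the 11 tested genes of this system and of the ATG4 proteases, 1 was higher and 5 were lower in DNMT1 knockdown. These are 9.09% and 45.5%, beside 21% and 20.8% of all tested genes. Among those lower, the calls of ATG16L1, ATG4C and ATG7 each ended when a library was left out, and those of ATG4D and ATG5 held. In DNMT3B knockdown 4 were higher and 4 lower, 36.4% each, beside 23.1% and 24.6%. ATG5 was at 35.3, 32.9 and 33.3 CPM in DNMT1 knockdown, 38, 40.1 and 37.1 CPM in DNMT3B knockdown and 45.2, 42.5 and 42.3 CPM in Control. It fell in both, in libraries that did not overlap Control, by more in DNMT1 knockdown (log2 fold change −0.36 ± 0.05, adjusted p = 2.98e-07) than in DNMT3B knockdown (−0.18 ± 0.05, adjusted p = 0.00194), and the direct comparison of the knockdowns passed as well (−0.18 ± 0.05, adjusted p = 0.00425).

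ATG12 (chr5:115828200-115841858, −), the partner of ATG5 in the conjugate, went the opposite way. It had 93.6, 85.7 and 89.4 CPM in DNMT1 knockdown, 93.9, 93.6 and 95.5 CPM in DNMT3B knockdown and 67.9, 69.9 and 63.5 CPM in Control, a rise of 1.34-fold in DNMT1 knockdown (0.42 ± 0.04, adjusted p = 6.64e-10) and of 1.41-fold in DNMT3B knockdown (0.49 ± 0.04, adjusted p = 1.28e-11). The AP3S1 gene, a subunit of an adaptor complex for vesicles, overlaps ATG12 head to head on the other strand. AP3S1 averaged 175 CPM in DNMT1 knockdown, 191 CPM in DNMT3B knockdown and 122 CPM in Control, with log2 fold changes of 0.52 ± 0.03 and 0.65 ± 0.03, and its part in the ATG12 counts was not tested.

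The ATG4 proteases, which trim ATG8 precursors and release ATG8 from membranes, were divided. ATG4D was lower in both, with 30, 33.5 and 29 CPM in DNMT1 knockdown, 34, 34 and 33 CPM in DNMT3B knockdown and 41.5, 42.8 and 45 CPM in Control (log2 fold changes −0.48 ± 0.05 and −0.36 ± 0.05, adjusted p = 3.49e-09 and 7.02e-07). KRI1, which overlaps ATG4D on the other strand, was not called in DNMT1 knockdown (−0.08 ± 0.05, adjusted p = 0.177). It was called higher in DNMT3B knockdown (0.18 ± 0.04, adjusted p = 0.00132), and its part in the ATG4D counts was not tested. ATG4A, at 8.54, 9.04 and 8.89 CPM in DNMT1 knockdown, 12.4, 12.1 and 11.5 CPM in DNMT3B knockdown and 9.39, 8.75 and 9.66 CPM in Control, was called higher in DNMT3B knockdown (0.37 ± 0.07, adjusted p = 0.000109) but not in DNMT1 knockdown (adjusted p = 0.473), and the knockdowns differed (−0.44 ± 0.08, adjusted p = 2.09e-05). ATG4C was lower in both by 0.20 and 0.22 on the log2 scale, and ATG4B passed in neither.

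ATG16L1 was called lower in DNMT1 knockdown (58.3 ± 2.66 CPM) and higher in DNMT3B knockdown (68.3 ± 2.21 CPM) than in Control (63.5 ± 1.17 CPM, SD, n = 3 each). Neither call held without every library, with an adjusted p of up to 0.134 in edgeR without DNMT1 knockdown replicate 3 and 0.143 without DNMT3B knockdown replicate 2, while the difference between the knockdowns was −0.22 ± 0.04 (adjusted p = 5.38e-05). ATG7, the E1-like enzyme, changed by −0.13 in DNMT1 knockdown, and ATG3 and ATG10, both E2-like, by 0.14 and −0.29 in DNMT3B knockdown, each with a call that 1 library could end. ATG16L2 passed in neither knockdown (adjusted p = 0.876 in DNMT1 knockdown and 0.839 in DNMT3B knockdown).

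Genes that start and feed the autophagosome membrane were mostly called in DNMT3B knockdown. Of 7 tested, 2 were higher and 1 lower in DNMT1 knockdown, 42.9% called, beside 41.8% of all tested genes. In DNMT3B knockdown 4 were higher and 2 lower, 85.7% called, beside 47.7%. ATG2A and ATG2B, tube-shaped proteins that carry lipids into the growing membrane, were at 45.8 ± 1.74 and 40 ± 0.726 CPM in DNMT1 knockdown, 56.6 ± 0.586 and 46 ± 2.2 CPM in DNMT3B knockdown and 42.4 ± 1.27 and 39.2 ± 1.47 CPM in Control (SD, n = 3 each). Both rose in DNMT3B knockdown (0.42 ± 0.04 and 0.24 ± 0.05, adjusted p = 1.39e-09 and 7.4e-05), and in the direct comparison both were lower in DNMT1 knockdown (−0.30 ± 0.04 and −0.21 ± 0.05).

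ATG9A, a scramblase in vesicles that seed the membrane, had 107, 107 and 104 CPM in DNMT1 knockdown, 86, 87.8 and 85.3 CPM in DNMT3B knockdown and 104, 96.2 and 102 CPM in Control. It fell in DNMT3B knockdown (−0.23 ± 0.04, adjusted p = 8.53e-06), overlapped Control in DNMT1 knockdown (0.07 ± 0.04, adjusted p = 0.127), and the knockdowns differed (0.30 ± 0.04, adjusted p = 1.23e-07). Its paralogue ATG9B rose in both from a low level, with 3.14, 3.5 and 3.82 CPM in DNMT1 knockdown, 4.3, 3.66 and 3.6 CPM in DNMT3B knockdown and 2.18, 2.31 and 2.05 CPM in Control (0.68 ± 0.14 and 0.83 ± 0.13, adjusted p = 0.000147 and 5.53e-06). Per kilobase of exon, ATG9B stood at 0.341 CPM and ATG9A at 21.3 CPM in Control. NOS3, whose 3′ end overlaps ATG9B on the other strand, was also higher, at 25 CPM in DNMT1 knockdown, 25.9 CPM in DNMT3B knockdown and 20.3 CPM in Control, and its part was not tested.

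Components of the ULK kinase complex, which receives starvation signals, gave mixed values. ATG101 fell in both, to 31.9 ± 2.84 CPM in DNMT1 knockdown and 29.1 ± 2.82 CPM in DNMT3B knockdown, against 40.6 ± 3.25 CPM in Control (SD, n = 3 each; −0.35 ± 0.06 and −0.49 ± 0.06, adjusted p = 3.19e-05 and 1.45e-07 in edgeR). ATG13, its binding partner, passed in neither (adjusted p = 0.1 and 0.0795). Among 20 further genes of initiation and of the phosphatidylinositol 3-kinase complexes, 6 were higher and 7 lower in DNMT1 knockdown (30% and 35%). Over all tested genes these shares were 21% and 20.8%. In DNMT3B knockdown 4 were higher and 8 lower (20% and 40%), beside 23.1% and 24.6%. The kinase ULK2 fell in both, to 27.4 CPM in DNMT1 knockdown and 21.7 CPM in DNMT3B knockdown, against 34.5 CPM in Control (−0.34 ± 0.05 and −0.68 ± 0.06, adjusted p = 5.4e-06 and 1.14e-11). RB1CC1, the scaffold FIP200 of the same complex, rose in both, by more in DNMT1 knockdown (0.38 ± 0.04, adjusted p = 2.29e-09) than in DNMT3B knockdown (0.14 ± 0.04, adjusted p = 0.005). The paralogous kinase ULK1 was called higher in both (0.24 and 0.12), with DNMT3B knockdown libraries that overlapped Control.

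TFEB and TFE3 mRNA did not pass the test in either knockdown. TFEB had 6.77, 7.93 and 7.73 CPM in DNMT1 knockdown, 7.81, 7.59 and 6.74 CPM in DNMT3B knockdown and 8.02, 7.86 and 8.44 CPM in Control (−0.12 ± 0.09 and −0.14 ± 0.09, adjusted p = 0.286 and 0.191). TFE3 had 35.3, 36.8 and 38.1 CPM in DNMT1 knockdown, 39.1, 34.4 and 37.8 CPM in DNMT3B knockdown and 35, 38.4 and 35.8 CPM in Control (0.01 ± 0.05 and 0.03 ± 0.05, adjusted p = 0.84 and 0.609). Both factors are controlled largely by where the protein sits in the cell, which mRNA levels do not show.

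Regulators of these factors were lower more often than higher. Of 22 tested genes of mTORC1, the Ragulator, the RAG GTPases and folliculin, 1 was higher and 7 lower in DNMT1 knockdown (4.55% and 31.8%). Over all tested genes these shares were 21% and 20.8%. In DNMT3B knockdown 5 were higher and 8 lower (22.7% and 36.4%), beside 23.1% and 24.6% of all tested genes. RRAGC and RRAGB, RAG GTPases that hold mTORC1 at the lysosome, fell in DNMT1 knockdown (−0.42 ± 0.06 and −0.35 ± 0.06, adjusted p = 3.32e-06 and 3.82e-05). FNIP2, a partner of folliculin, fell in both, to 23.6 CPM in DNMT1 knockdown and 17.5 CPM in DNMT3B knockdown, against 28.2 CPM in Control (−0.26 ± 0.05 and −0.69 ± 0.05). ZKSCAN3, described as a transcriptional repressor of autophagy genes, averaged 29.2 CPM in DNMT1 knockdown, 19.9 CPM in DNMT3B knockdown and 29.3 CPM in Control, and it fell in DNMT3B knockdown (−0.56 ± 0.05, adjusted p = 2.53e-10). TSC2, of the same list, rose in DNMT3B knockdown (0.27 ± 0.04, adjusted p = 2.16e-07).

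CD68 (chr17:7579467-7582113, +), a heavily glycosylated lysosomal protein related to the LAMPs and best known from macrophages, showed the largest change of all tested members in DNMT3B knockdown. It had 17.5, 17.7 and 18.9 CPM in DNMT1 knockdown, 34.7, 30.1 and 33.9 CPM in DNMT3B knockdown and 17.1, 17.7 and 18.2 CPM in Control. The DNMT3B knockdown libraries lay above all others at 1.87-fold the Control level (log2 fold change 0.90 ± 0.06, adjusted p = 2.78e-14), while DNMT1 knockdown overlapped Control (0.03 ± 0.06, adjusted p = 0.717). No other gene of the table shares exon bases with CD68, but AC016876.2, an annotated gene on the same strand that is not in the table, shares 1789 and AC016876.1, on the other strand, 150. How reads of these genes were counted is not stated, and their part in the CD68 value was not tested.

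Most markers of leukocytes were near 0 beside this value. The 12 listed summed to 4.7 to 5.29 CPM in DNMT1 knockdown, 5.28 to 6.28 CPM in DNMT3B knockdown and 4.49 to 5.01 CPM in Control, and all 12 had at least 1 count somewhere. Group means of PTPRC, CD3E, CD3D, MS4A1, LYZ, CD163, FCGR3A and AIF1 were at most 0.148 CPM, all near the floor of 3 counts. CSF1R, at 3.19 CPM in DNMT1 knockdown, 3.53 CPM in DNMT3B knockdown and 2.85 CPM in Control, made up most of the sum and was called higher in DNMT3B knockdown (0.31). The defining pan-leukocyte marker PTPRC thus averaged 0.148 CPM in DNMT3B knockdown, where CD68 averaged 32.9 CPM. Markers of stroma summed to 29.4 to 34.1 CPM in DNMT1 knockdown, 38.9 to 41.6 CPM in DNMT3B knockdown and 25.8 to 30.4 CPM in Control, mostly COL1A1 and ACTA2, with COL1A2 and DCN at 0 in every library. The 7 endothelial markers summed to 4.17 to 5.29 CPM in DNMT1 knockdown, 5.93 to 6.89 CPM in DNMT3B knockdown and 4.95 to 5.68 CPM in Control. VWF was higher in DNMT3B knockdown (2.6 CPM, against 1.2 CPM in Control, log2 fold change 1.09 ± 0.17, adjusted p = 3.86e-06) and CLDN5 lower, and CDH5 averaged at most 0.12 CPM in any group. The part of stromal and endothelial markers in the CD68 result was not tested.

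LAMP1 and LAMP2 mRNA moved little. LAMP1 had 202, 203 and 203 CPM in DNMT1 knockdown, 185, 193 and 193 CPM in DNMT3B knockdown and 217, 209 and 215 CPM in Control. It was lower in DNMT3B knockdown (−0.17 ± 0.03, adjusted p = 8.26e-05), and in DNMT1 knockdown it missed the threshold (−0.08 ± 0.03, adjusted p = 0.0533) although its libraries did not overlap Control, and passed without Control replicate 2 (adjusted p = 0.0345) and with limma-voom (adjusted p = 0.0439). LAMP2 passed in neither, at 57.4 ± 2.63 CPM in DNMT1 knockdown, 57.2 ± 1.53 CPM in DNMT3B knockdown and 59.1 ± 4.44 CPM in Control (SD, n = 3 each). LAMP3, a LAMP-like protein first described in dendritic cells, was low and higher in both knockdowns, with 3.78 ± 0.602 CPM in DNMT1 knockdown, 4.31 ± 0.333 CPM in DNMT3B knockdown and 2.97 ± 0.395 CPM in Control. Its DNMT1 knockdown call (0.35 ± 0.13, adjusted p = 0.0368 in edgeR) ended without DNMT1 knockdown replicate 2 (0.21, adjusted p = 0.269), and its DNMT3B knockdown value was 0.52 ± 0.13 (adjusted p = 0.00135).

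Among the cathepsins, CTSL, CTSZ and CTSK fell in both knockdowns, CTSH and CTSA rose in both, and CTSB moved in opposite directions. CTSC, CTSD and CTSW were called in DNMT3B knockdown but not in DNMT1 knockdown, and CTSO and CTSV in neither. Of 11 tested, 3 were higher and 3 lower in DNMT1 knockdown, 27.3% each, beside 21% and 20.8% of all tested genes. In DNMT3B knockdown 3 were higher and 6 lower (27.3% and 54.5%), beside 23.1% and 24.6%. The summed level of all 15 was 679 to 693 CPM in DNMT1 knockdown, 611 to 623 CPM in DNMT3B knockdown and 645 to 686 CPM in Control, so that every DNMT3B knockdown library was below every Control library.

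CTSL (chr9:87725519-87731393, +), a cysteine endopeptidase, fell most in DNMT1 knockdown. It had 28.1, 29.1 and 25.1 CPM in DNMT1 knockdown, 32.6, 34.7 and 35.4 CPM in DNMT3B knockdown and 49.6, 43.5 and 48.9 CPM in Control. The 3 groups did not overlap, and the fall was 1.73-fold in DNMT1 knockdown (−0.79 ± 0.06, adjusted p = 3.5e-13) and 1.39-fold in DNMT3B knockdown (−0.47 ± 0.05, adjusted p = 1.42e-08), with a difference between the knockdowns of −0.32 ± 0.06 (adjusted p = 4.81e-05).

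CTSZ, a cysteine carboxypeptidase, also fell in both, but by more in DNMT3B knockdown. It had 69.8, 69.1 and 71.1 CPM in DNMT1 knockdown, 59.8, 60.9 and 60.5 CPM in DNMT3B knockdown and 83.4, 82.2 and 86.2 CPM in Control, again in 3 separate ranges (−0.26 ± 0.04 and −0.48 ± 0.04, adjusted p = 8.56e-07 and 5.28e-12). The direct difference was 0.21 ± 0.04 (adjusted p = 3.82e-05). CTSK, the collagen-degrading cathepsin known from osteoclasts, was low and fell in both, to 2.78 ± 0.376 CPM in DNMT1 knockdown and 2.65 ± 0.233 CPM in DNMT3B knockdown, against 3.94 ± 0.193 CPM in Control (SD, n = 3 each; −0.50 ± 0.13 and −0.57 ± 0.13, adjusted p = 0.00175 and 0.000483 in edgeR).

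CTSB, the most abundant cathepsin by count, was higher in DNMT1 knockdown and lower in DNMT3B knockdown. Its levels were 252, 263 and 254 CPM in DNMT1 knockdown, 192, 202 and 192 CPM in DNMT3B knockdown and 212, 212 and 216 CPM in Control. No library of any group overlapped another group (0.26 ± 0.03, adjusted p = 1.02e-07, in DNMT1 knockdown, and −0.13 ± 0.03, adjusted p = 0.00193, in DNMT3B knockdown), and the direct difference was 0.39 ± 0.03 (adjusted p = 2.78e-11), the largest rise among cathepsins in that comparison.

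CTSD, the aspartic protease, had 133, 136 and 135 CPM in DNMT1 knockdown, 119, 124 and 120 CPM in DNMT3B knockdown and 132, 128 and 142 CPM in Control. It fell in DNMT3B knockdown (−0.15 ± 0.04, adjusted p = 0.00141) and passed in DNMT1 knockdown neither way (0.00 ± 0.04, adjusted p = 0.947). CTSH, an aminopeptidase, rose in both, to 13.1 ± 0.525 CPM in DNMT1 knockdown and 12.6 ± 1.54 CPM in DNMT3B knockdown, against 9.65 ± 1.01 CPM in Control (SD, n = 3 each; 0.44 ± 0.08 and 0.38 ± 0.09, adjusted p = 8.45e-05 and 0.000449 in edgeR). CTSA, the serine carboxypeptidase that also protects lysosomal glycosidases, was higher by 0.11 ± 0.04 in DNMT1 knockdown, where leaving out Control replicate 2 ended the call, and by 0.20 ± 0.04 in DNMT3B knockdown.

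CTSW, known from cytotoxic lymphocytes, was called higher in DNMT3B knockdown at a level of a few CPM, with 5.16, 3.23 and 4.14 CPM there, 2.48, 2.64 and 3.62 CPM in DNMT1 knockdown and 2.65, 3.02 and 3.15 CPM in Control (0.53 ± 0.15, adjusted p = 0.00291). Without DNMT3B knockdown replicate 1 the call ended (0.36, adjusted p = 0.0613). CD3E and CD3D, defining T cell markers, averaged at most 0.018 CPM in every group. CTSC was lower in DNMT3B knockdown (−0.13) with overlapping libraries, and the call ended without Control replicate 1 (adjusted p = 0.45). CTSE, CTSF, CTSG and CTSS had at most 11 counts in any library.

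Inhibitors of cysteine cathepsins, the cystatins and serpins, were 12 genes of which 6 were tested. In DNMT1 knockdown 2 were higher and 1 lower than in Control (33.3% and 16.7%), beside 21% and 20.8% of all tested genes. In DNMT3B knockdown 1 was higher and 1 lower, 16.7% each, beside 23.1% and 24.6%. Cystatin A (CSTA) fell in DNMT1 knockdown, to 2.97, 2.51 and 2.78 CPM, against 6.38, 6.26 and 5.84 CPM in Control (−1.16 ± 0.11, adjusted p = 5.17e-10), a larger change than that of any cathepsin. Cystatin B (CSTB) rose in both, to 56.6 CPM in DNMT1 knockdown and 51.4 CPM in DNMT3B knockdown, against 46 CPM in Control (0.30 ± 0.05 and 0.17 ± 0.05, adjusted p = 5.56e-06 and 0.0052).

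The membrane sector V0 of the proton pump was higher in sum in both knockdowns. Its 9 genes summed to 585 to 596 CPM in DNMT1 knockdown, 648 to 650 CPM in DNMT3B knockdown and 566 to 575 CPM in Control, with no overlap between groups. Of 7 tested, 3 were higher and 3 lower in DNMT1 knockdown, 42.9% each, beside 21% and 20.8% of all tested genes. In DNMT3B knockdown 4 were higher and 2 lower (57.1% and 28.6%), beside 23.1% and 24.6%. The most abundant V0 gene was ATP6V0C, the proteolipid that forms the rotor ring and the member with the highest level per kilobase of exon (151 CPM per kb in DNMT1 knockdown, 179 in DNMT3B knockdown and 143 in Control). ATP6V0C had 223, 218 and 238 CPM in DNMT1 knockdown, 269, 267 and 268 CPM in DNMT3B knockdown and 220, 214 and 209 CPM in Control, a rise in DNMT3B knockdown (0.32 ± 0.03, adjusted p = 3.48e-09) and a difference in DNMT1 knockdown that did not pass (0.08 ± 0.03, adjusted p = 0.0693).

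The paralogous a subunits, which direct the pump to different membranes, moved apart. ATP6V0A1 had 119, 123 and 123 CPM in DNMT1 knockdown, 144, 139 and 139 CPM in DNMT3B knockdown and 101, 109 and 103 CPM in Control, and rose in both (0.22 ± 0.04 and 0.43 ± 0.04, adjusted p = 1.53e-05 and 2.34e-11). ATP6V0A2 (chr12:123712318-123761755, +), the paralogue of the Golgi and endosomes, had 45.8, 41.4 and 41.2 CPM in DNMT1 knockdown, 33.1, 31.7 and 31.1 CPM in DNMT3B knockdown and 46.3, 45.7 and 47.2 CPM in Control. It fell 1.45-fold in DNMT3B knockdown (−0.54 ± 0.05, adjusted p = 8.69e-11), while its DNMT1 knockdown libraries overlapped Control and its call there (−0.12 ± 0.05, adjusted p = 0.0408) ended without DNMT1 knockdown replicate 3 (−0.09, adjusted p = 0.2).

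Other V0 subunits changed by less. ATP6V0B, a second proteolipid, was lower in both, at 51.5 ± 2.76 CPM in DNMT1 knockdown, 54.8 ± 4.75 CPM in DNMT3B knockdown and 62.3 ± 3.65 CPM in Control (SD, n = 3 each; −0.28 ± 0.05 and −0.19 ± 0.05), the second of these without a call when DNMT3B knockdown replicate 1 was left out (adjusted p = 0.0616 in edgeR). ATP6V0D1, which couples the ring to V1, rose in both (0.17 ± 0.04 and 0.23 ± 0.04, adjusted p = 0.00171 and 7.16e-05). ATP6V0E1 was at 0.14 and 0.11 and ATP6V0E2 at −0.15 and 0.00 on the log2 scale in DNMT1 knockdown and DNMT3B knockdown. The kidney and osteoclast paralogues ATP6V0A4 and ATP6V0D2 had at most 15 and 0 counts.

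In the catalytic sector V1 the 2 knockdowns lay on either side of Control. The 14 genes summed to 529 to 540 CPM in DNMT1 knockdown, 588 to 596 CPM in DNMT3B knockdown and 552 to 572 CPM in Control, 3 ranges without overlap. Of 13 tested, 3 were higher and 4 lower in DNMT1 knockdown (23.1% and 30.8%), beside 21% and 20.8% of all tested genes. In DNMT3B knockdown 4 were higher and 1 lower (30.8% and 7.69%), beside 23.1% and 24.6% of all tested genes. These 13 include ATP6V1FNB, a gene next to ATP6V1F that encodes no pump subunit. The read-through ATP6V1G2-DDX39B, also a member by its symbol, was set apart and passed in no comparison.

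ATP6V1A, the ATP-hydrolysing subunit, was at 75.9, 78.2 and 74.3 CPM in DNMT1 knockdown, 85.1, 89.1 and 89.1 CPM in DNMT3B knockdown and 87.6, 80.6 and 85.2 CPM in Control. It fell in DNMT1 knockdown (−0.15 ± 0.04, adjusted p = 0.0022), overlapped Control in DNMT3B knockdown (0.05 ± 0.04, adjusted p = 0.264), and differed between the knockdowns (−0.21 ± 0.04, adjusted p = 8.46e-05). ATP6V1G1, a stator subunit whose motif window is printed above, was at 73.5, 71.3 and 76.7 CPM in DNMT1 knockdown, 91.3, 88 and 91.9 CPM in DNMT3B knockdown and 78, 77.7 and 75.5 CPM in Control, and it rose in DNMT3B knockdown (0.23 ± 0.04, adjusted p = 6.37e-06). ATP6V1F, of the central stalk, rose there too (0.30 ± 0.04, adjusted p = 1.06e-07). ATP6V1H, a regulatory subunit, was lower in DNMT1 knockdown (−0.20 ± 0.06, adjusted p = 0.00418), at 29.7 ± 2 CPM in DNMT1 knockdown, 33.7 ± 2.07 CPM in DNMT3B knockdown and 34.2 ± 2.16 CPM in Control (SD, n = 3 each), with overlapping libraries.

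ATP6V1E1, another stator subunit, fell alike in both, to 59.4 ± 1.16 CPM in DNMT1 knockdown and 59.2 ± 1.69 CPM in DNMT3B knockdown, against 70.9 ± 0.0769 CPM in Control (SD, n = 3 each; −0.25 ± 0.04 and −0.26 ± 0.04, adjusted p = 2.87e-06 and 1.39e-06 in edgeR). Its paralogue ATP6V1E2, known from testis, was at 10.1 ± 0.765 CPM in DNMT1 knockdown, 9.79 ± 0.624 CPM in DNMT3B knockdown and 8.42 ± 0.194 CPM in Control, and was called higher in both (0.27 ± 0.08 and 0.21 ± 0.08, adjusted p = 0.0079 and 0.0304), the DNMT3B knockdown call ending without DNMT3B knockdown replicate 1 (adjusted p = 0.128). The neuronal paralogue ATP6V1G2 rose in DNMT3B knockdown (0.69 ± 0.19, adjusted p = 0.00379) at 44, 36 and 55 counts, against 42, 29 and 40 counts in larger Control libraries, and shares exon bases with the read-through and with NFKBIL1. ATP6V1FNB was called higher in DNMT1 knockdown at 4.23 CPM, against 3.42 CPM in Control (0.30 ± 0.12, adjusted p = 0.0492), and lost the call without DNMT1 knockdown replicate 2 (0.23, adjusted p = 0.204).

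Accessory and assembly factors of the pump were lower more often than higher. Of 12 tested, 2 were higher and 7 lower in DNMT1 knockdown (16.7% and 58.3%), beside 21% and 20.8% of all tested genes. In DNMT3B knockdown 1 was higher and 6 lower (8.33% and 50%), beside 23.1% and 24.6%. DMXL2, a rabconnectin that promotes joining of V1 to V0, rose in both, with 129, 123 and 126 CPM in DNMT1 knockdown, 94.9, 93.4 and 94.3 CPM in DNMT3B knockdown and 80.1, 83.8 and 78.5 CPM in Control (0.64 ± 0.04 and 0.22 ± 0.04, adjusted p = 1.24e-15 and 8.33e-06). NCOA7, which binds V1, fell to 31 CPM in DNMT1 knockdown and 30.7 CPM in DNMT3B knockdown, against 41.3 CPM in Control (−0.41 ± 0.05 and −0.43 ± 0.05). ATP6AP1, an assembly subunit, fell by 0.17 ± 0.04 in DNMT1 knockdown.

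Lysosomal hydrolases other than cathepsins were higher more often than lower in DNMT1 knockdown. Of 38 tested, 12 were higher and 6 lower there (31.6% and 15.8%), beside 21% and 20.8% of all tested genes. In DNMT3B knockdown 13 were higher and 12 lower (34.2% and 31.6%), beside 23.1% and 24.6%. TPP1, a tripeptidyl peptidase, and the hyaluronidase HYAL1 rose in DNMT1 knockdown (0.33 ± 0.04 and 0.76 ± 0.11, adjusted p = 1.19e-07 and 1.12e-06), HYAL1 to 6.03, 7.54 and 6.07 CPM, against 3.97, 3.43 and 4.14 CPM in Control. In DNMT3B knockdown IDS, a sulfatase with a pseudogene copy, and the mannosidase MAN2B1 rose (0.40 ± 0.04 and 0.30 ± 0.04).

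Other membrane and transport proteins of the lysosome numbered 26 tested, of which 4 were higher and 10 lower in DNMT1 knockdown (15.4% and 38.5%). Over all tested genes these shares were 21% and 20.8%. In DNMT3B knockdown 9 were higher and 11 lower (34.6% and 42.3%), beside 23.1% and 24.6%. The cholesterol carrier NPC2 rose in DNMT1 knockdown to 62.9, 62.9 and 62.4 CPM, against 44.3, 42 and 47.1 CPM in Control (0.49 ± 0.04, adjusted p = 5.65e-11), and the chloride transporter CLCN7 fell (−0.35 ± 0.04, adjusted p = 5.22e-09). In DNMT3B knockdown TPCN1, a cation channel, rose (0.48 ± 0.04, adjusted p = 5.29e-11), whereas sialin (SLC17A5) and the tetraspanin CD63 fell (−0.46 ± 0.05 each, adjusted p = 5.98e-10 and 4.15e-09). Of 14 genes for fusion of autophagosomes with lysosomes, 3 were higher (21.4%) and the other 11 not called in DNMT1 knockdown. Over all tested genes, 21% were higher and 20.8% lower in that comparison, so the share higher was near the background. In DNMT3B knockdown 7 were higher and 1 lower (50% and 7.14%), beside 23.1% and 24.6% of all tested genes. The fusion adaptor PLEKHM1 and the small GTPase RAB7A rose there (0.37 ± 0.04 and 0.21 ± 0.03, adjusted p = 7.87e-09 and 3.69e-06), and VPS39, a HOPS subunit, was the one that fell (−0.24 ± 0.04, adjusted p = 5.3e-06).

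**Figure D3:**
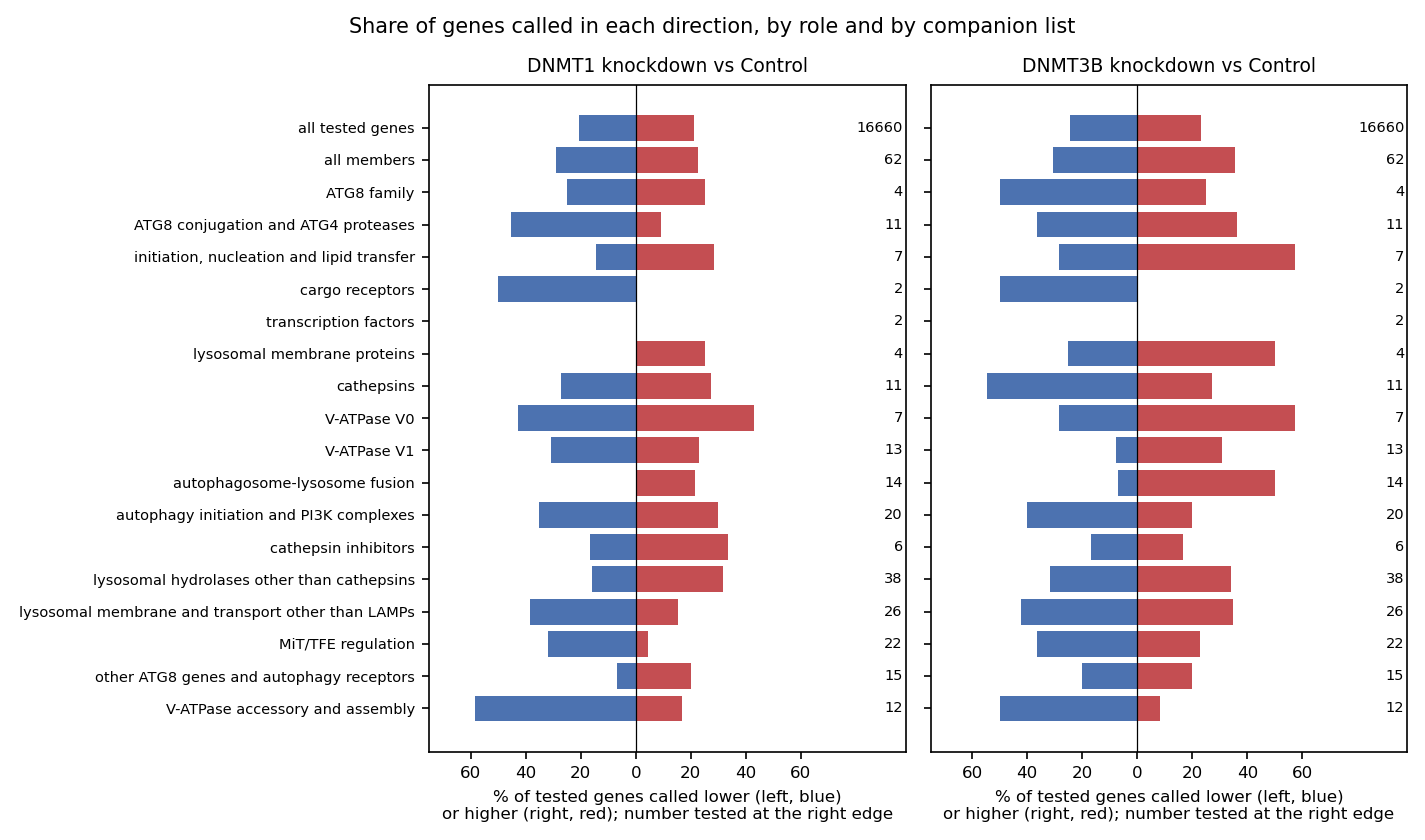
Share of tested genes called higher (red, right) and lower (blue, left) than Control, in percent, in DNMT1 knockdown (left panel) and DNMT3B knockdown (right panel), for all tested genes, all members, each role and each companion list, with the number tested at the right edge. All tested genes give 21% higher and 20.8% lower in DNMT1 knockdown and 23.1% and 24.6% in DNMT3B knockdown. Several lists hold under 10 genes, so that 1 gene moves their bars by over 10 points.

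Set directly against each other, the knockdowns differed in 30 of the 62 tested members (48.4%), 10 higher and 20 lower in DNMT1 knockdown than in DNMT3B knockdown. Over all tested genes, 45.2% were called, 24.3% higher and 20.9% lower, so the share of members called was near the background and more of the members were lower. The median difference of members was −0.06 on the log2 scale. Those higher in DNMT1 knockdown were led by GABARAPL1 (0.53 ± 0.06, adjusted p = 3.13e-09), ATP6V0A2 (0.42 ± 0.05, adjusted p = 2.8e-08), CTSB, ATP6V1FNB, GABARAP and ATG9A. Those lower in DNMT1 knockdown were led by CD68 (−0.87 ± 0.06, adjusted p = 1.76e-13), the only member to differ by at least 1.5-fold, then ATP6V1G2, CTSW, ATG4A, MAP1LC3B (−0.34 ± 0.04, adjusted p = 1.48e-08), CTSL and ATG2A.

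By role, the V1 sector had 1 gene higher and 7 lower in DNMT1 knockdown than in DNMT3B knockdown among 13 (7.69% and 53.8%). V0 had 1 and 3 among 7 (14.3% and 42.9%), and the ATG8 family 2 and 1 among 4 (50% and 25%). The cathepsins had 3 and 3 among 11 (27.3% each). Over all tested genes these shares were 24.3% and 20.9%. The 2 cargo receptors and the 2 transcription factors did not pass this test. For SQSTM1 the difference was −0.02 ± 0.03 (adjusted p = 0.585), and for TFEB it was 0.02 ± 0.09 (adjusted p = 0.871). NBR1 and TFE3 had an adjusted p of 0.876 and 0.795. Calls for ATP6V0E2, ATP6V1B2, ATP6V1FNB, ATP6V1G2, ATP6V1H, CTSV, CTSW and LAMP1 ended when 1 library was left out (highest adjusted p per gene 0.071 to 0.253), and the other 22 held. DESeq2 ended 4 of the calls, those of ATP6V1B2, ATP6V1FNB, ATP6V1G2 and CTSV.

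**Figure D4:**
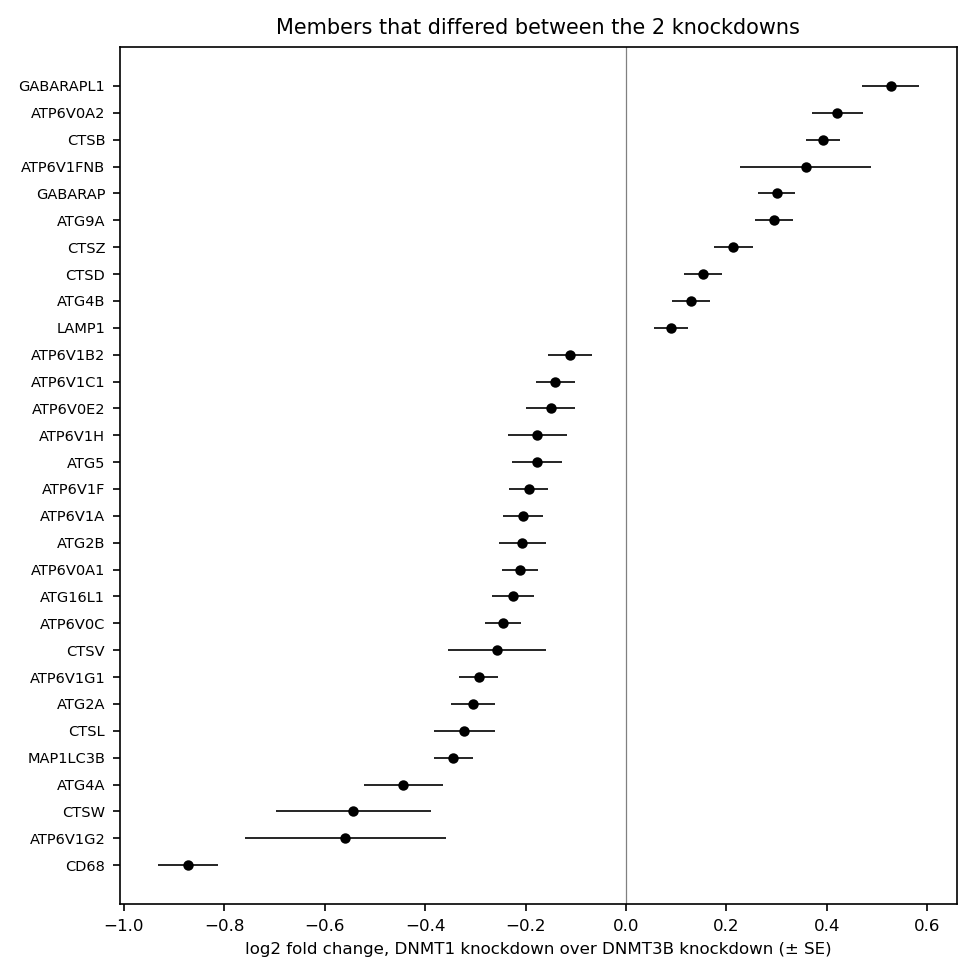
Log2 fold change of DNMT1 knockdown over DNMT3B knockdown (x axis, ± SE) for the 30 members that passed an adjusted p below 0.05 in the direct comparison, sorted by value. The 10 right of 0 were higher in DNMT1 knockdown, up to GABARAPL1 (0.53), and the 20 left of 0 were lower, down to CD68 (−0.87).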

How the data were processed

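The authors deposited raw read counts per gene symbol, with no scaling, in 1 table of 9 libraries. Tools named in the submitters' processing notes are STAR, featureCounts and DESeq2, with build GRCh38 (hg38). Versions, annotation and strand setting are not given in the sources used. All 9 columns were matched to a sample by name (0 columns without a sample).

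Differences were tested with edgeR 4.0.16 (R 4.3.3): filterByExpr by group, TMM scaling, and the quasi-likelihood test over all 9 libraries without covariates (6 residual degrees of freedom), with Benjamini-Hochberg adjustment over all 16660 tested genes. Values are CPM of the TMM-scaled library size, ± marks the SD of a level or the SE of a log2 fold change. A count of 0 allows up to 3 counts, or 0.0891 to 0.16 CPM by library, which covers counting error only. Levels per kilobase use merged exon lengths of GENCODE release 29, in which all 70 members were found. The LAMP genes, whose symbols end in P and a digit, were kept because the rule names them.

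Members and gene lists were chosen with earlier results of these data known. Full values are given for the 8 largest called rises and falls per comparison with a mean of at least 1 CPM in the higher group, for 12 fixed genes (SQSTM1, MAP1LC3B, GABARAP, GABARAPL1, GABARAPL2, TFEB, TFE3, LAMP1, LAMP2, CTSB, CTSD, CTSL), and for up to 3 called genes per companion list. Some genes that this rule names are not reported here. Alternatives were DESeq2 1.42.0, limma-voom (limma 3.58.1), other scalings and filters, fits of 2 groups, a block for the replicate number, and fits with each library left out in turn. The edgeR script was tested on simulated data. Replicates differed by more than sampling noise, so each library was counted once.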

Additional observations from a re-analysis of the deposited data

How the results depend on the processing

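No called member changed sign under any alternative run. Member calls kept numbered 24 of 32 with DESeq2 in DNMT1 knockdown against Control, 35 of 41 in DNMT3B knockdown against Control and 26 of 30 in the direct comparison. Members called higher in DNMT1 knockdown, 14 in all, ranged from 8 to 15 when a library was left out, with 9 without DNMT1 knockdown replicate 3; the cause was not tested. Same-numbered libraries did not deviate together (correlations of −0.0615 to 0.0425), so the numbers were not taken to pair them; with the replicate block, 30 members were called in DNMT1 knockdown, 40 in DNMT3B knockdown and 30 in the direct comparison. Among the members given with full values, signs reversed only for those near 0 without a call. With a library left out, the log2 fold change ranged, in DNMT1 knockdown against Control, from −0.00499 to 0.043 for GABARAPL1, −0.0112 to 0.0493 for TFE3, −0.0943 to 0.0192 for LAMP2 and −0.03 to 0.0509 for CTSD; in DNMT3B knockdown against Control, from −0.000669 to 0.0845 for TFE3 and −0.0936 to 0.0132 for LAMP2; and in the direct comparison, from −0.0424 to 5.05e-06 for SQSTM1, −0.0474 to 0.0905 for TFEB, −0.0665 to 0.0188 for TFE3 and −0.0201 to 0.0437 for LAMP2. CTSD was at −0.00648 in DNMT1 knockdown without a low-count filter, and LAMP2 at −0.000783 in the direct comparison fitted on 2 groups. Genes of a few CPM, such as ATP6V1G2 and CTSW, are limited by depth.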
